A study of Rattus norvegicus with 24 samples.

Results

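A set of 9 regional genes of the septum and ventral forebrain was followed through RNA-seq of the rat nucleus accumbens (NAc). They are Zic1, Zic2, Zic4, Zic5, Lhx8, Gbx1, Nkx2-1, Slc17a6 and Trh, and they make up 9 of the 32545 genes in the table. They were picked by name as transcripts better known from tissue that borders the NAc, with earlier results of these libraries known. Each had a value in all 24 libraries, and all 9 passed the filter on low values in every comparison.

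The rats were adult male Sprague Dawley, 8 weeks old on arrival, and 6 groups of 4 libraries were held. In the injection experiment, 5 injections of 250 µg/kg lipopolysaccharide (LPS), a bacterial cell wall component that sets off an immune response, or of saline, were followed after a gap by heroin or saline on 5 days, with heroin doses rising from 1 to 5 mg/kg. LPS-Heroin rats had received both agents, LPS-Saline and Saline-Heroin rats 1 of them and Saline-Saline rats neither. All were recorded as killed about 1 h after the last injection. The paper's methods give a short locomotor session after that injection and killing within 1 h of its end, which allows a longer time. The labels put the gap before heroin or saline at 1 week, and the paper's methods give a shorter one. In the self-administration experiment, rats with a jugular catheter took heroin at 0.075 mg/kg per infusion (Heroin-SA) or saline (Saline-SA) for 6 h a day in 10 sessions and were killed directly afterwards. Housing and light cycle also differed between the experiments according to the methods, so a level set across experiments carries more than the drug. The labels name no transgene, and they call the libraries biological replicates without saying whether any share a litter or a day, so the p-values measure the spread between these rats as sampled.

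The NAc, the ventral part of the striatum, is built mainly of medium spiny neurons. It borders the septum medially and the ventral pallidum, diagonal band and preoptic area ventrally and caudally. Regional identity in the forebrain is laid down by transcription factors that stay on in the adult neurons of each region. The Zic genes encode zinc finger factors known from the septum and other midline structures. Nkx2-1 marks cells of the medial ganglionic eminence, the preoptic area and the hypothalamus, and the LIM homeodomain factor Lhx8 acts below it in basal forebrain cholinergic neurons. Gbx1 encodes a homeodomain factor of the ventral forebrain. Slc17a6 encodes the vesicular glutamate transporter VGLUT2, used by thalamic, hypothalamic and septal neurons, and Trh encodes the precursor of thyrotropin-releasing hormone.

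Markers of medium spiny neurons were found in every library, but they mark the striatum as a whole and not the NAc alone. Over the 24 libraries, Ppp1r1b, the DARPP-32 gene of medium spiny neurons, lay between 488 and 1452 FPKM, Drd1 between 41.1 and 103 FPKM and Drd2 between 24.6 and 92.0 FPKM. Slc17a7, the transporter gene of cortical glutamatergic neurons, lay between 36.6 and 374 FPKM, with a median of 260 FPKM. The part of cortical tissue in these libraries was not tested. FPKM is the fragment count of a gene scaled by its length and by the size of the library, so these levels can be set beside one another. Whole reads recovered from the FPKM values summed to 12312878 to 18850240 reads on genes per library, and reads of mitochondrial genes made up 6.82% to 9.10% of them in the injection experiment and 10.0% to 15.9% in the self-administration experiment. Saline-Saline replicate 1 stood apart, with Ttr, the transthyretin gene of the choroid plexus, at 318 FPKM, whereas Ttr was listed at 0 in 9 libraries and had a median of 0.190 FPKM. Correlations and calls that rest on this library are given with and without it.

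On rn6, the build named in the submitters' processing notes, the Zic genes lie in head-to-head pairs. Zic1 is on the minus strand of chromosome 8 at 98734295 to 98738446 and Zic4 on the plus strand at 98745310 to 98761840, with 6864 bases between their starts. Zic5 and Zic2 are arranged in the same way on chromosome 15, at 108891992 to 108898703 on the minus strand and 108908607 to 108912737 on the plus strand, with 9904 bases between the starts. The other members are on separate loci: Lhx8 on chromosome 2 at 260574190 to 260596777, Gbx1 on chromosome 4 at 7173961 to 7200752, Trh on the same chromosome at 124110716 to 124113242, Nkx2-1 on chromosome 6 at 77418096 to 77421286 and Slc17a6 on chromosome 1 at 106998544 to 107038706. None of the 9 gene spans overlapped another gene of the table.

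The promoters of the Zic genes and of Gbx1, Nkx2-1 and Lhx8 are shown because these are the members that varied together from library to library. They are the 250 bases before the annotated start, 5′ to 3′ on the strand of the gene, from RefSeq on GRCr8, a later build than that of the values. Windows were held for 8 of the 9 members, all but Zic1, and Lhx8 has 2 annotated starts, of which the window with the lower coordinates is shown. Capitals mark the letters of 4 motifs searched on both strands: CAAGTG, the core bound by NKX2-1, CCTGCTG for ZIC factors, TAATTA for LIM and GBX homeodomains, and TATAAA, the TATA box. No 2 of these motifs overlapped in the windows.
Zic4, chr8:100795852-100796101, plus strand: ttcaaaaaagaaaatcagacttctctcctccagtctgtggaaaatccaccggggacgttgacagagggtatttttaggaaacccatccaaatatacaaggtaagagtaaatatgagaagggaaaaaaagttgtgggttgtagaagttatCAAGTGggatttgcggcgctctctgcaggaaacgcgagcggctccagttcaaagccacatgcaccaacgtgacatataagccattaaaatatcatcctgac
Zic5, chr15:105973670-105973919, minus strand: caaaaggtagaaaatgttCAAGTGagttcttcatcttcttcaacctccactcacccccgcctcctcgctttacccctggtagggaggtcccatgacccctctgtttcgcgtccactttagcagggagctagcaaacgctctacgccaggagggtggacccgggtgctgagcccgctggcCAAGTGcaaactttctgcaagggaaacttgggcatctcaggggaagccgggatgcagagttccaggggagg
Zic2, chr15:105983092-105983341, plus strand: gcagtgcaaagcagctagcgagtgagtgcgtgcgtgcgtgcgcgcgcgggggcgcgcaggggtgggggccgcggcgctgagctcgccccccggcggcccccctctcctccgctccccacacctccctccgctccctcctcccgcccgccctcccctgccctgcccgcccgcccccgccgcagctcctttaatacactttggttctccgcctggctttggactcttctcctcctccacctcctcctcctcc
Gbx1, chr4:11538152-11538401, plus strand: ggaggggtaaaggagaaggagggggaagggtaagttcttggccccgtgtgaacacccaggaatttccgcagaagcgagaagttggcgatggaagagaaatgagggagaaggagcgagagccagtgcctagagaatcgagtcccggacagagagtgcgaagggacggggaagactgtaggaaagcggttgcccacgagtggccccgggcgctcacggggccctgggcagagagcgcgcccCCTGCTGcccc
Nkx2-1, chr6:79734868-79735117, minus strand: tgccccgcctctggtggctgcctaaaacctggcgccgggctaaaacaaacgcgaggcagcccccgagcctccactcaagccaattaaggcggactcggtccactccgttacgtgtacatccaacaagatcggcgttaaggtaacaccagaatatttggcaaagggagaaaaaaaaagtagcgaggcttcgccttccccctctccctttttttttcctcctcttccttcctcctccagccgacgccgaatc
Lhx8, chr2:245927479-245927728, minus strand: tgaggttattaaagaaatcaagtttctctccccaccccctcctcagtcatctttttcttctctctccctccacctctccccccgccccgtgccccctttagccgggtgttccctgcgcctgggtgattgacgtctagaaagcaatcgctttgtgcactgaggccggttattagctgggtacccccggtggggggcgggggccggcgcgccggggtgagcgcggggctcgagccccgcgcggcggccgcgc

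The NKX2-1 core stood at bases 96 to 101 before the Zic4 start and at 2 places before the Zic5 start, bases 66 to 71 and 227 to 232. It was present in 11.7% of the 33469 windows of this length. A ZIC motif stood at bases 5 to 11 before the Gbx1 start and was present in 7.67% of windows. TAATTA and TATAAA, held by 4.86% and 12.9% of windows, were in none of the members' windows. The Zic2 window was 73.6% G and C and the Zic4 window 43.2%, against a median of 51.2% over all windows. These are matches of letters and say nothing on which factor binds.

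Zic1 was the most abundant of the Zic genes, and its level varied widely between rats of 1 group. The Saline-Saline libraries, replicates 1 to 4, held 57.7, 6.77, 10.5 and 31.4 FPKM, so that the highest was 8.52 times the lowest. The Saline-Heroin libraries held 13.6, 30.9, 10.1 and 6.11 FPKM and the LPS-Saline libraries 7.36, 7.52, 12.1 and 9.89 FPKM. Only 3 libraries of the 24 were above 30 FPKM, 2 of Saline-Saline and 1 of Saline-Heroin. LPS-Heroin held 7.65, 5.63, 8.46 and 17.4 FPKM, Saline-SA 5.62, 6.62, 8.12 and 18.0 FPKM and Heroin-SA 6.45, 8.79, 4.96 and 6.34 FPKM. The means were 26.6 ± 23.4 FPKM in Saline-Saline, 15.2 ± 10.9 in Saline-Heroin, 9.79 ± 5.22 in LPS-Heroin, 9.6 ± 5.72 in Saline-SA, 9.23 ± 2.26 in LPS-Saline and 6.64 ± 1.59 in Heroin-SA (SD, n = 4 each). Neighbours in this order overlapped, and the Saline-Saline mean rested on replicates 1 and 4.

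Zic4, the head-to-head neighbour of Zic1, was lower in level and put the libraries in much the same order. Saline-Saline held 7.01, 1.07, 1.27 and 4.73 FPKM, Saline-Heroin 1.54, 3.84, 1.26 and 0.583 FPKM and LPS-Saline 0.683, 0.970, 1.60 and 1.46 FPKM. In LPS-Heroin the values were 0.603, 0.366, 1.19 and 1.83 FPKM. Again Saline-Saline replicates 1 and 4 and Saline-Heroin replicate 2 were the 3 highest. The self-administration libraries held 0.934, 1.52, 0.985 and 2.73 FPKM with saline and 0.846, 1.13, 0.592 and 0.564 FPKM with heroin. Group means ran from 3.52 ± 2.87 FPKM in Saline-Saline to 0.784 ± 0.266 FPKM in Heroin-SA.

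Zic2 and Zic5, the chromosome 15 pair, were also highest in Saline-Saline replicate 1. For Zic2 the Saline-Saline libraries held 22.1, 2.37, 3.02 and 9.88 FPKM, the LPS-Saline libraries 2.27, 3.26, 2.49 and 7.10 FPKM and the Saline-Heroin libraries 5.88, 9.85, 6.62 and 2.52 FPKM. It was at 2.95, 1.98, 2.15 and 5.32 FPKM in LPS-Heroin, 3.09, 2.07, 1.56 and 4.56 FPKM in Saline-SA and 3.43, 2.83, 2.11 and 2.64 FPKM in Heroin-SA. The 4 Heroin-SA libraries were the closest together of any group for this gene, 2.75 ± 0.543 FPKM. Zic5, the lowest of the 4 Zic members, had 3.74, 0.549, 0.645 and 1.77 FPKM in Saline-Saline and 1.29, 1.10, 1.26 and 0.359 FPKM in Saline-Heroin, and its other libraries lay between 0.347 and 1.24 FPKM. With 9 to 123 reads per library, Zic5 was the Zic gene with the fewest reads.

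Lhx8 had another order of libraries. Saline-Saline held 7.21, 13.4, 17.3 and 15.2 FPKM, and here replicate 1, the highest for the 4 Zic members, was the lowest of the group. The highest value of the 24 was in LPS-Saline, which held 3.56, 12.5, 23.1 and 6.87 FPKM. Saline-Heroin held 3.28, 16.4, 3.16 and 5.90 FPKM. LPS-Heroin fell into a lower and a higher pair, 2.25, 2.39, 8.17 and 8.75 FPKM. Saline-SA held 5.76, 11.8, 16.2 and 10.9 FPKM and Heroin-SA 6.24, 4.64, 6.32 and 9.09 FPKM. By mean, the order was Saline-Saline (13.3 ± 4.34 FPKM), LPS-Saline (11.5 ± 8.56), Saline-SA (11.2 ± 4.28), Saline-Heroin (7.18 ± 6.26), Heroin-SA (6.57 ± 1.85) and LPS-Heroin (5.39 ± 3.55), and each group overlapped the next.

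Gbx1 rested on few reads, 3 to 118 per library. Saline-Saline held 1.97, 2.02, 2.27 and 4.39 FPKM and LPS-Saline 0.222, 1.21, 3.38 and 0.913 FPKM. Saline-Heroin held 0.479, 1.88, 0.289 and 0.935 FPKM and LPS-Heroin 0.110, 0.116, 1.55 and 0.798 FPKM. The 4 Saline-Saline libraries were thus above all 8 libraries of rats injected with heroin, and also above 3 of the 4 LPS-Saline libraries. How many other genes separate 4 libraries from 8 in this way was not counted. In Saline-SA the values were 0.694, 1.64, 2.47 and 1.27 FPKM and in Heroin-SA 0.911, 0.189, 0.610 and 1.20 FPKM, ranges that overlapped.

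Nkx2-1 was even in Saline-Saline and spread in the treated groups. Saline-Saline held 3.70, 3.53, 4.44 and 4.09 FPKM, a mean of 3.94 ± 0.406 FPKM. LPS-Saline held 1.45, 3.13, 4.44 and 1.68 FPKM and Saline-Heroin 1.72, 5.42, 1.73 and 2.45 FPKM. Replicate 3 of the former and replicate 2 of the latter, which were also high in Lhx8 and Gbx1, reached or passed the Saline-Saline values. LPS-Heroin held 1.19, 1.57, 2.84 and 2.49 FPKM, all below Saline-Saline. Saline-SA held 2.26, 3.41, 5.17 and 3.38 FPKM and Heroin-SA 2.46, 2.34, 1.69 and 2.98 FPKM.

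Slc17a6 had a single high library, Saline-Saline replicate 1. That group held 16.5, 4.78, 5.69 and 5.43 FPKM, LPS-Saline 3.47, 7.19, 6.18 and 4.66 FPKM and Saline-Heroin 2.94, 6.93, 2.54 and 3.30 FPKM. LPS-Heroin held 4.44, 2.53, 2.82 and 4.96 FPKM, Saline-SA 2.71, 3.19, 2.89 and 5.24 FPKM and Heroin-SA 3.12, 2.12, 2.20 and 1.93 FPKM. The 3 lowest libraries of the 24 were all Heroin-SA. The group means fell from 8.11 ± 5.63 FPKM in Saline-Saline to 2.34 ± 0.532 FPKM in Heroin-SA, with overlap between each pair of neighbours.

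Trh had the smallest within-group SD of the members on the log2(FPKM + 0.1) scale, 0.40, although its ratio to the SD usual at its level was 2.16. Saline-Saline held 11.3, 6.64, 9.03 and 7.54 FPKM, LPS-Saline 6.78, 6.21, 6.28 and 4.65 FPKM and Saline-Heroin 5.31, 10.6, 7.60 and 6.21 FPKM. LPS-Heroin was the lowest group, with 5.63, 4.36, 4.70 and 5.98 FPKM, none of which reached the Saline-Saline range. Saline-SA held 7.48, 9.95, 8.44 and 23.0 FPKM, the highest mean of the 6 groups at 12.2 ± 7.27 FPKM, and replicate 4 stood far above the others. Heroin-SA held 6.62, 5.01, 5.94 and 5.93 FPKM and lay below every Saline-SA library.

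**Figure D1:**
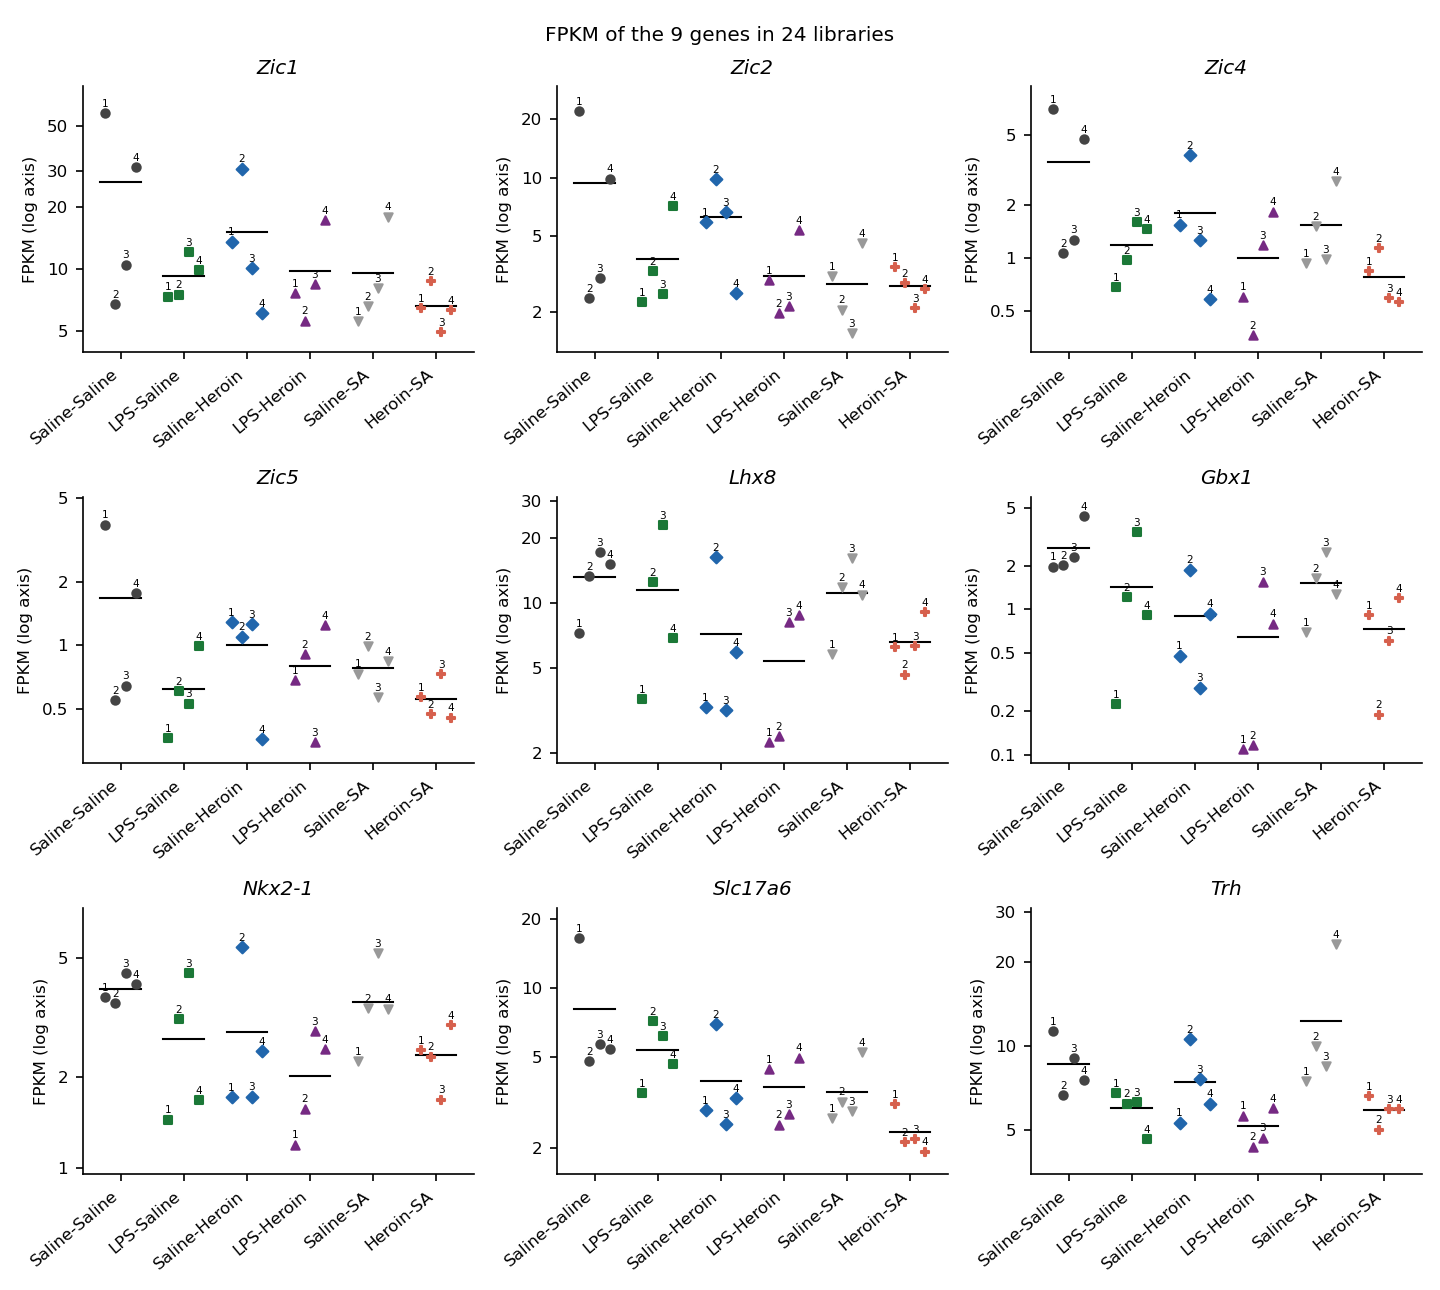
FPKM of the 9 genes (log axis) in each of 24 libraries, by group, with the replicate number beside each point and the group mean as a line. Saline-Saline replicate 1 is the highest library for the 4 Zic genes and for Slc17a6 (57.7 FPKM for Zic1, 16.5 FPKM for Slc17a6), while LPS-Saline replicate 3 is the highest for Lhx8 at 23.1 FPKM.

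Spread between rats of 1 group was large for these genes. The within-group SD on the log2(FPKM + 0.1) scale was 0.83 for Zic1, 0.84 for Zic2, 0.87 for Zic4, 0.86 for Lhx8 and 1.08 for Gbx1, against a median of 0.20 over the 15118 genes tested. Rarer transcripts vary more, and the SD that the limma trend gives at the same mean level was 0.52 for Gbx1 and 0.44 for Zic4. For Zic2 it was 0.25, and for Zic1 and Lhx8 it was 0.16 and 0.18, near the median of 0.16. Set against this trend SD, the ratio was 5.24 for Zic1, 4.85 for Lhx8 and 3.42 for Zic2, where the median gene had 1.08. By this ratio Zic1 stood at percentile 98.9 of genes, Lhx8 at 98.6 and Zic2 at 96.2. Slc17a6, Trh, Gbx1, Zic4 and Nkx2-1 had ratios from 1.86 to 2.27, and Zic5 had 1.19, close to the median gene.

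Across libraries, most of the close correlations fell within 2 sets of genes. With group means removed, the 6 pairs of Zic members had Pearson r from 0.654 to 0.948 over the 24 libraries, and 4 of them had an adjusted p below 0.05 by permutation, all but Zic1 with Zic5 and Zic4 with Zic5. In the self-administration experiment alone their r ran from -0.138 to 0.856. The 3 pairs among Lhx8, Gbx1 and Nkx2-1 had r from 0.835 to 0.922, and all 3 passed. Slc17a6 had r from 0.65 to 0.73 with Zic1, Zic2 and Zic4, near the lower Zic pairs. The 12 pairs that join a Zic gene to Lhx8, Gbx1 or Nkx2-1 had r from -0.190 to 0.392 over the 24 libraries. By permutation none of them then had an adjusted or an unadjusted p below 0.05. Without Saline-Saline replicate 1 their median r rose from 0.143 to 0.254, so these low values rested partly on that library. Zic1 with Lhx8 and Nkx2-1, and Zic4 with Lhx8 and Gbx1, then had r from 0.455 to 0.50. Their permutation p ran from 0.0395 to 0.0477 (adjusted p = 0.0974 for each). Whether r differed between these kinds of pair was not itself tested. Over all 36 pairs, 12 had an adjusted p below 0.05 by Pearson's r and 10 by Spearman's rho, from 100000 shuffles of the libraries within groups with Benjamini-Hochberg adjustment over the 36. The genes had been picked with earlier results of these libraries known, so these p-values describe how far the pairs exceed shuffled libraries and are not independent evidence.

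The closest pair was Zic1 and Zic4, with r = 0.95 (permutation p = 1e-05, the smallest the shuffles can give, adjusted p = 0.00018) and rho = 0.92 (permutation p = 1e-05, adjusted p = 0.00018). No other named gene of the 13390 compared was closer to either of them. Without the 2 libraries farthest from the median of Zic1, r was 0.94, and it was 0.94 without Saline-Saline replicate 1. It was 0.96 in the injection experiment and 0.86 in the self-administration experiment. Zic2 and Zic5 had r = 0.85 and rho = 0.78 (permutation p = 0.00062 and 0.00116, adjusted p = 0.00319 and 0.00597), but r was 0.91 in the injection experiment and 0.15 in the self-administration experiment. The relation of Zic2 and Zic5 therefore did not hold within the 8 self-administration libraries, where Zic2 had 34 to 109 reads and Zic5 14 to 37.

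Lhx8 and Nkx2-1 had r = 0.92 and rho = 0.91 (permutation p = 2e-05 and 1e-05, adjusted p = 0.00024 and 0.00018). Lhx8 and Gbx1 had r = 0.91 and rho = 0.90 (permutation p = 1e-05 and 2e-05, adjusted p = 0.00018 and 0.00024). For Gbx1 and Nkx2-1 r was 0.84 and rho 0.84 (permutation p = 4e-05 and 5e-05, adjusted p = 0.00036 and 0.00045). Without the 2 farthest libraries these 3 pairs kept r from 0.781 to 0.884, within the injection experiment r was 0.883 to 0.946, and within self-administration 0.640 to 0.885. Zic1 and Lhx8, by contrast, had r = 0.24 and rho = 0.25 (permutation p = 0.278 and 0.262). Without Saline-Saline replicate 1 their r rose to 0.455 (permutation p = 0.0444, adjusted p = 0.0974), so the low value rested partly on that library.

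Slc17a6 was correlated with Zic1, Zic4 and Trh. Its r was 0.73 with Zic1 (permutation p = 0.00155, adjusted p = 0.0062) and 0.68 with Trh (permutation p = 0.00111, adjusted p = 0.005), and rho was 0.58 and 0.57 (permutation p = 0.00865 and 0.00855, adjusted p = 0.0311 for both). With Zic4 r was 0.69 and rho 0.63 (permutation p = 0.00285 and 0.00597, adjusted p = 0.0103 and 0.0269). Without the 2 farthest libraries r was 0.62 with Zic1, 0.44 with Zic4 and 0.60 with Trh (permutation, adjusted p = 0.059, 0.172 and 0.0698), and none of the 5 pairs with Slc17a6 or Trh that had passed still did, so these relations rest on those libraries. With Lhx8, Gbx1 and Nkx2-1 its r was 0.29, 0.29 and 0.40. Whether the r with Zic1 and that with Lhx8 differ was not tested. Without Saline-Saline replicate 1, the r of Slc17a6 with Zic1 was 0.60 and that with Lhx8 rose to 0.59, so that the gap between them rested on that library. Trh had r = 0.59 with Zic1 (permutation p = 0.0104, adjusted p = 0.0312) and rho = 0.45 (permutation p = 0.0653, adjusted p = 0.147). Without Saline-Saline replicate 1 the r of Trh with Zic1 was 0.54 (permutation p = 0.0298, adjusted p = 0.09). That of Slc17a6 with Zic2 was then 0.46 (permutation p = 0.0539, adjusted p = 0.0974), so neither of these pairs still passed.

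**Figure D2:**
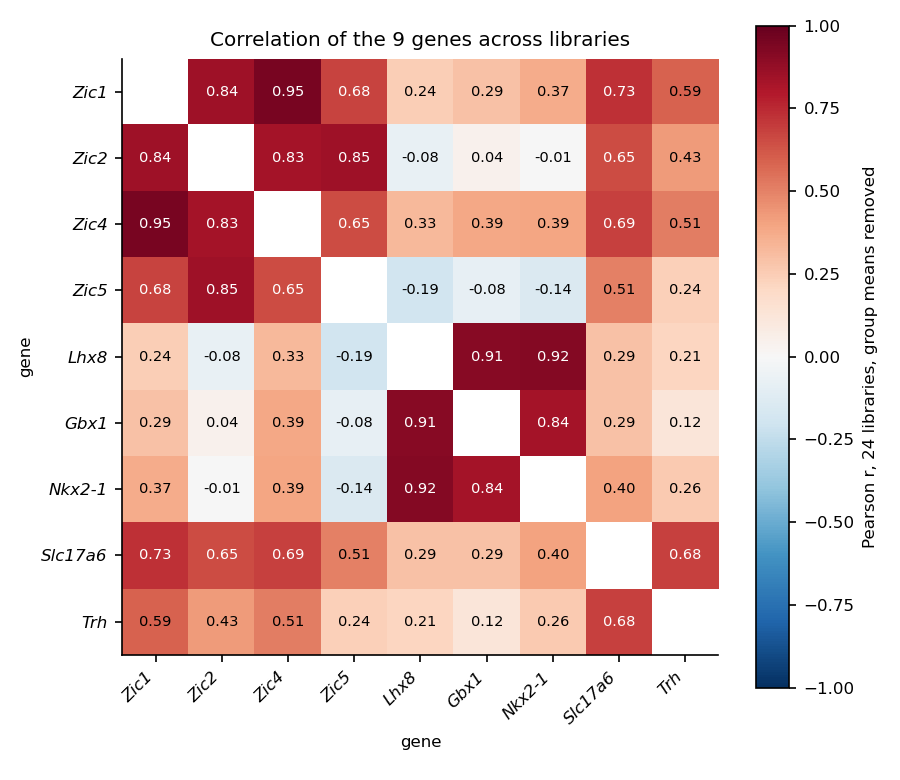
Pearson r of every pair of the 9 genes over 24 libraries, from log2(FPKM + 0.1) with group means removed (colour and printed value, -1 to 1). The Zic block (0.65 to 0.95) and the block of Lhx8, Gbx1 and Nkx2-1 (0.84 to 0.92) stand out, and the 12 cells between them run from -0.19 to 0.39.

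**Figure D3:**
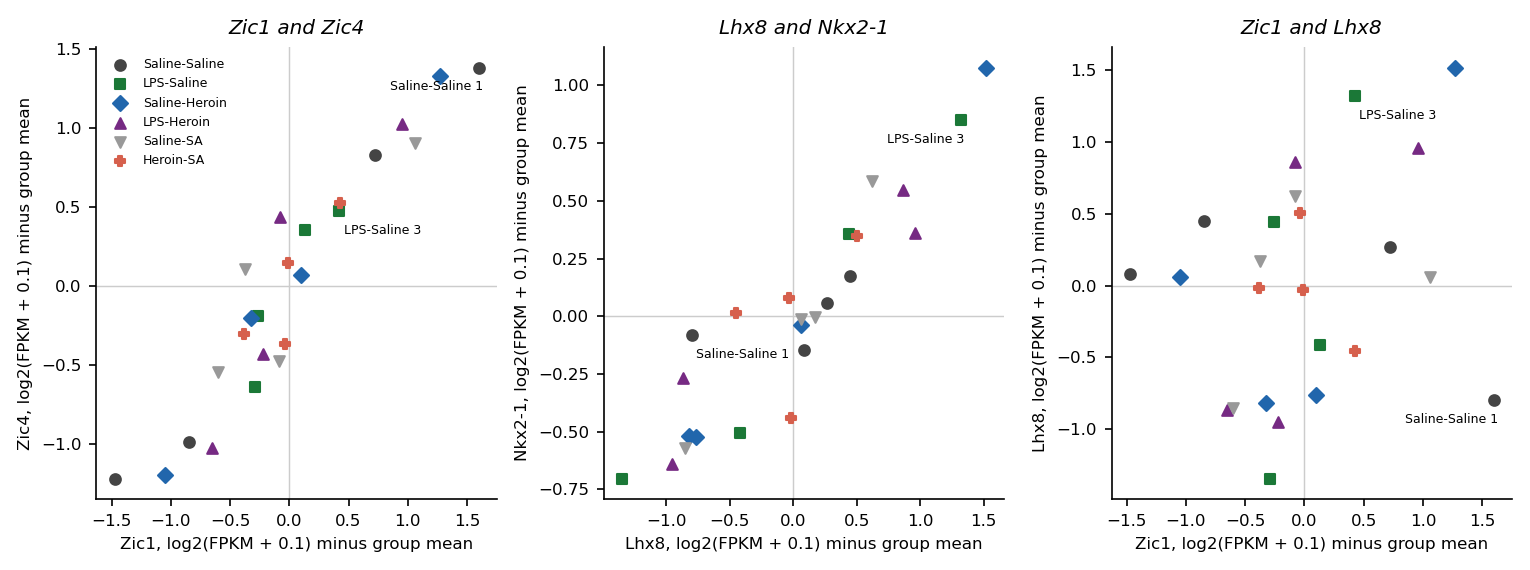
Deviation of each of 24 libraries from its group mean on the log2(FPKM + 0.1) scale, for Zic1 and Zic4, Lhx8 and Nkx2-1, and Zic1 and Lhx8, with groups by colour and shape. The points follow a line in the left and middle panels (r = 0.95 and 0.92) and are scattered in the right panel (r = 0.24), where Saline-Saline replicate 1 is high in Zic1 and low in Lhx8.

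The genes most alike to each member, by Pearson r over the 24 libraries among genes with a mean of at least 0.5 FPKM, were other genes for each set. For Zic1 they included Prkcd, a protein kinase C gene (r = 0.91), and Fhl1, a LIM domain gene (r = 0.88). Prkcd reached 26.4 FPKM in Saline-Saline replicate 1 and 15.3 FPKM in Saline-Saline replicate 4, against a median of 5.93 FPKM. Zic4 shared Fhl1 (0.86), and the growth factor receptor gene Fgfr1 was also near it (0.85). Zic2 was most like the collagen gene Col6a3 (0.93), Rhpn1 (0.93) and Pip5k1b (0.90), and Zic5 was most like the intermediate filament gene Synm (0.91), Calml4 (0.83) and Plekhd1 (0.80).

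For Lhx8 the nearest genes were Agt, the angiotensinogen gene (r = 0.92), the orphan receptor gene Gpr165 (0.91) and Ache, the acetylcholinesterase gene (0.90). Agt ran from 17.0 to 123 FPKM over the libraries, so its range was wide. Gbx1 was nearest to Agt (0.89), Slc10a4, a transporter gene of cholinergic neurons (0.89), and Gpr165 (0.87). Nkx2-1 was nearest to Gpr165 (0.94), Lhx6, a LIM homeodomain factor of the medial ganglionic eminence (0.92), and Ece2 (0.92). Slc17a6 was nearest to Sdc3 (0.84), Calb2, the calretinin gene (0.84), and Pcbd1 (0.80), and Calb2 reached 101 FPKM in Saline-Saline replicate 1, without which its r was 0.76. Trh was nearest to Eomes (0.85), Ptpn23 (0.81) and Afmid (0.79), but Eomes had a mean of only 0.501 FPKM with a highest value of 8.06 FPKM. These r values rank 13390 genes over the same libraries and carry no test.

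Lists of tissue markers, with the members themselves left out, were set against the members. The mean log2 level of 6 lateral septum genes had r = 0.88 with Zic1, 0.79 with Zic4, 0.76 with Zic2, 0.60 with Zic5 and 0.82 with Slc17a6. With Lhx8, Gbx1 and Nkx2-1 it was 0.03, 0.06 and 0.21. The mean of 7 cholinergic genes had r = 0.85 with Lhx8, 0.82 with Gbx1 and 0.78 with Nkx2-1. With Zic1, Zic4, Zic2 and Zic5 it was 0.44, 0.50, 0.165 and 0.06. The 3 choroid plexus genes above the filter had r = 0.83 with Zic1 and 0.89 with Zic2, and 0.07 with Lhx8. The 12 genes of striatal medium spiny neurons had r = -0.50 with Zic1 and -0.62 with Zic2, and 0.23 with Lhx8. Cortical glutamatergic genes had r = -0.58 with Nkx2-1 and 0.01 with Zic2. Thalamic genes, 6 without the members, had r = 0.71 for Zic1, 0.635 for Zic4, 0.54 for Zic2 and 0.33 for Zic5. Their r was 0.70 for Slc17a6, 0.63 for Trh, 0.53 for Nkx2-1, 0.50 for Gbx1 and 0.41 for Lhx8. Without Saline-Saline replicate 1, the lateral septum list had r = 0.85 with Zic1, 0.76 with Zic4, 0.61 with Zic2 and 0.32 with Zic5. Its r was then 0.69 with Slc17a6, 0.32 with Lhx8, 0.18 with Gbx1 and 0.34 with Nkx2-1. The choroid plexus list then had r = 0.77 with Zic1, 0.84 with Zic2 and 0.26 with Lhx8. The cholinergic list had 0.85 with Lhx8, 0.64 with Zic1, 0.65 with Zic4, 0.33 with Zic2 and 0.20 with Zic5. For the thalamic list the values were 0.59 with Zic1, 0.52 with Zic4, 0.31 with Zic2, -0.0017 with Zic5 and 0.70 with Lhx8. The points are the same libraries throughout, and the values are descriptions.

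Single libraries carried different mixtures of markers, and the genes named here were chosen after their values were seen. Saline-Saline replicate 1 was the highest library for Crhr2, a receptor gene of the lateral septum, at 5.25 FPKM, and for the channel gene Trpc4 at 11.8 FPKM, while its Drd1 was the lowest of all libraries at 41.1 FPKM. Its thalamic sum without the members, 144 FPKM, was also the highest of the 24. Of the thalamic list, Calb2, Prkcd, Shox2 and Tcf7l2 were highest in this library, and Lef1, Gbx2 and Rora in others. Saline-Saline replicate 4, the next highest in Zic1, had the highest Chat, the gene of acetylcholine synthesis, at 8.71 FPKM, and the highest Ngfr, at 12.5 FPKM, with Ttr at 5.35 FPKM. In Saline-Heroin replicate 2, the third library high in Zic1, Oxt, the oxytocin gene, reached 95.1 FPKM, whereas Oxt was listed at 0 in 11 libraries. The same library was the highest for Avp at 4.57 FPKM, Gal at 9.93 FPKM, Esr1 at 1.08 FPKM, Hmx3 at 0.918 FPKM and Hmx2 at 0.316 FPKM. LPS-Saline replicate 3, the highest in Lhx8, had Oxt and Ttr listed at 0 and Crhr2 at 0.179 FPKM, but it was the highest library for other genes of the lateral septum list, Nts at 47.3 FPKM, Avpr1a at 1.47 FPKM and Glp1r at 0.805 FPKM. Its lateral septum sum, 63.9 FPKM, was the highest of the 24, above the 60.3 FPKM of Saline-Saline replicate 1. Over all libraries the preoptic and hypothalamic list was mixed. Sim1 and Otp were listed at 0 in 16 libraries each and Six6 in 21, with highest values of 0.0543, 0.952 and 0.0466 FPKM, while Calcr had a median of 7.73 FPKM and Gal of 3.08 FPKM. In bulk tissue, fewer cells of a kind and less RNA per cell cannot be told apart, and the part that neighbouring tissue had in any library was not tested.

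**Figure D4:**
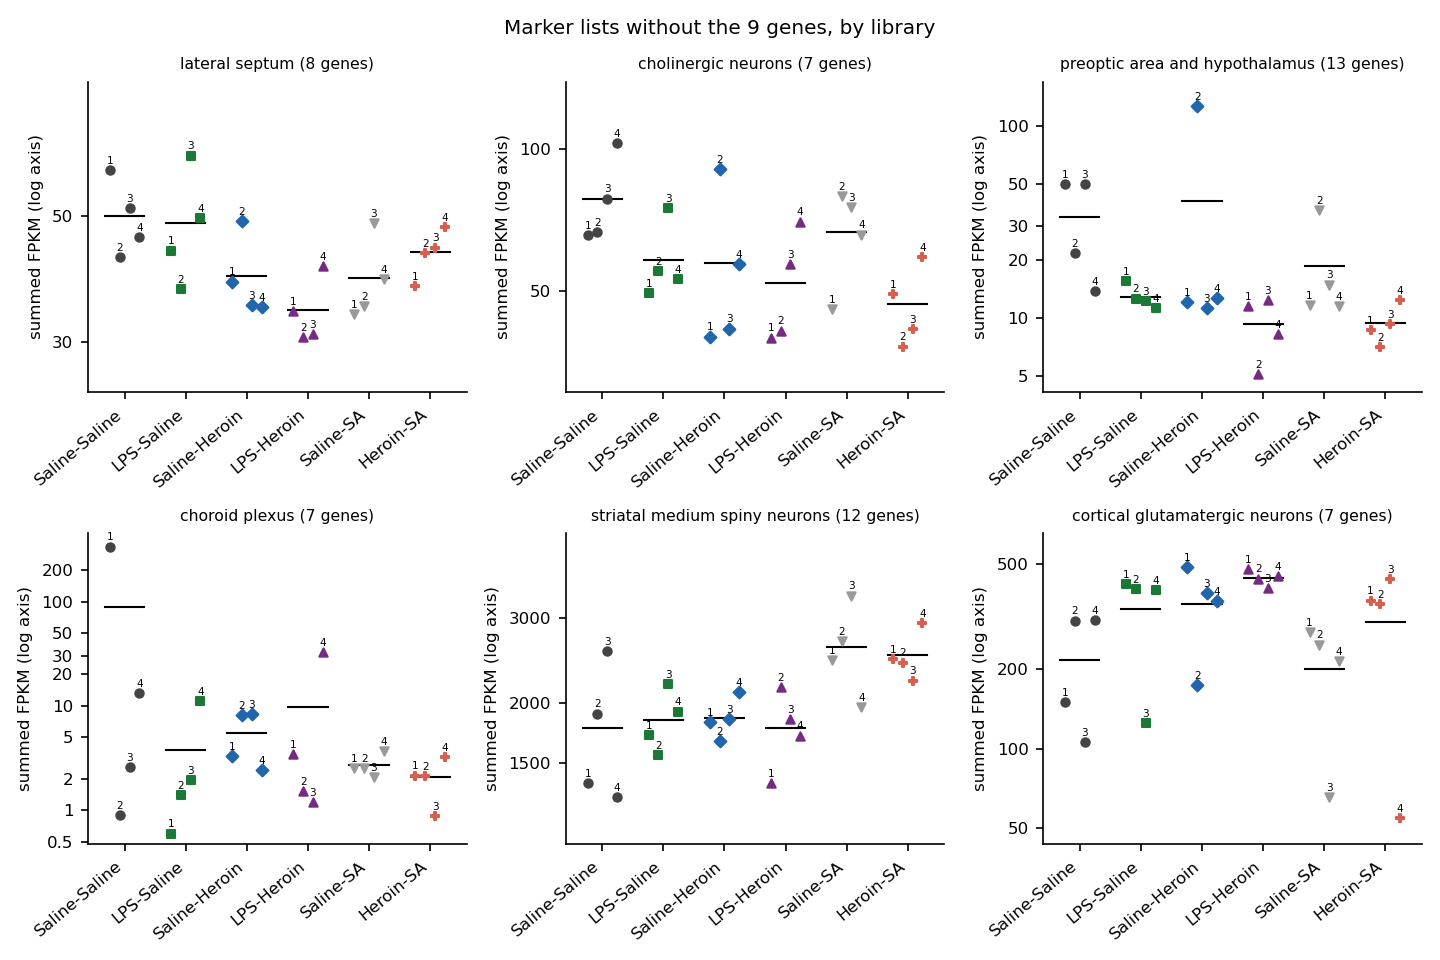
Summed FPKM of 6 marker lists (log axis), members left out, in each of 24 libraries by group, with replicate numbers and the group mean as a line. Choroid plexus genes sum to 337 FPKM in Saline-Saline replicate 1 and preoptic and hypothalamic genes to 127 FPKM in Saline-Heroin replicate 2, while medium spiny neuron genes stay between 1273 and 3338 FPKM.

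Between the groups, the question was whether LPS, heroin or both moved these transcripts in the NAc. A gene was called where limma's unadjusted p was at most 0.05 and the change at least 1.3-fold, a rule the study's methods give for its pattern and overlap analyses, while they take differential expression from adjusted p-values. The adjusted p-values of the members in the 6 comparisons of 2 groups, by limma with Benjamini-Hochberg adjustment over all genes tested, were between 0.208 and 1.00, so each call below rests on the unadjusted rule. Comparisons against Saline-Saline share its 4 libraries, and their results are set side by side without being counted as repeats. The members were picked with earlier results of these libraries known. The shares of all genes printed beside the calls therefore give a scale and are no test of the set.

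LPS-Heroin against Saline-Saline had the most calls. Of the 9 genes 6 fell, Zic4, Lhx8, Gbx1, Nkx2-1, Slc17a6 and Trh, where 2.44% of the 15134 genes tested were called lower. The remaining members, Zic1, Zic2 and Zic5, had log2 fold changes of -1.08 ± 0.64, -1.12 ± 0.66 and -0.71 ± 0.60 (SE). The median over the 9 was -1.08, and that over all genes tested was 0.00059. The 9 genes are not 9 separate results, since those of 1 set vary together.

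The lowest p was that of Trh, which fell by 0.71 ± 0.17 on the log2 scale (SE, limma p = 0.0028, adjusted p = 0.208, exact permutation p = 0.0286), from 8.63 ± 2.03 to 5.17 ± 0.764 FPKM, and was lower in 4 of 4 libraries than every Saline-Saline library. Nkx2-1 fell by 1.00 ± 0.26 (limma p = 0.00374, adjusted p = 0.224, exact permutation p = 0.0286), from 3.94 ± 0.406 to 2.03 ± 0.770 FPKM, without overlap. Gbx1 fell by 2.36 ± 0.68 (limma p = 0.00691, adjusted p = 0.242, exact permutation p = 0.0286), also without overlap, from 56 to 118 reads per library to 3 to 40. The exact tests were two-sided, and 0.0286 is the smallest p that 4 against 4 libraries allow. Beside these 3 genes without overlap, 3.16% of genes tested lay lower in LPS-Heroin without overlap. Lhx8 fell by 1.48 ± 0.49 (limma p = 0.0145, adjusted p = 0.307, exact permutation p = 0.0857), and 2 of the 4 LPS-Heroin libraries were above the lowest Saline-Saline library.

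Slc17a6 fell by 0.97 ± 0.39 (limma p = 0.0362, adjusted p = 0.404, exact permutation p = 0.0571), and Zic4 by 1.52 ± 0.67 (limma p = 0.0492, adjusted p = 0.441, exact permutation p = 0.143). Both calls ended when Saline-Saline replicate 1 was left out, with log2 fold changes of -0.56 for Slc17a6 and -1.06 for Zic4, leaving Lhx8, Gbx1, Nkx2-1 and Trh called. The call of Zic4 also ended without Saline-Saline replicate 4 or LPS-Heroin replicates 1, 2 or 3, and that of Slc17a6 without LPS-Heroin replicates 2 or 3. Leaving out 1 library at a time, the values were -1.93 to -1.06 for Zic4 and -1.15 to -0.56 for Slc17a6. Lhx8, Gbx1, Nkx2-1 and Trh were called whichever single library was left out. The cortical glutamatergic list moved the other way in the same comparison, with 7 of its 7 genes tested called higher, where 2.99% of all genes tested were called higher, and a summed level of 407 to 479 FPKM in LPS-Heroin against 106 to 308 FPKM in Saline-Saline. Choroid plexus genes summed to 1.20 to 32.7 FPKM in LPS-Heroin and 0.897 to 337 FPKM in Saline-Saline, and medium spiny neuron genes to 1361 to 2152 and 1273 to 2565 FPKM. Preoptic and hypothalamic genes without the members summed to 5.12 to 12.4 FPKM in LPS-Heroin and 13.8 to 49.9 FPKM in Saline-Saline, without overlap. Oxt alone made up 21.3 of 49.9 FPKM in Saline-Saline replicate 1 and 31.3 of 49.7 FPKM in replicate 3. In replicate 4, where Oxt was listed at 0, the sum was 13.8 FPKM. The part of such tissue in the lower levels of the members was not tested.

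Saline-Heroin against Saline-Saline gave 1 call, Gbx1, beside 1.67% of 15143 genes called lower. Gbx1 fell by 1.67 ± 0.50 on the log2 scale (SE, limma p = 0.00902, adjusted p = 0.750, exact permutation p = 0.0286), from 2.66 ± 1.16 to 0.895 ± 0.709 FPKM, without overlap, as 1.49% of genes lay lower in this way. The other members had values of -1.15 ± 0.51 for Lhx8, -0.94 ± 0.43 for Slc17a6, -0.80 ± 0.70 for Zic4, -0.62 ± 0.33 for Nkx2-1, -0.58 ± 0.71 for Zic1 and -0.43 ± 0.62 for Zic5, none of which passed the rule, and Zic2 and Trh changed by less than 1.3-fold. Without Saline-Saline replicate 1 the log2 fold change of Zic5 was 0.06. Without Saline-Heroin replicate 2, the library with the highest Oxt, 4 members were called, Lhx8, Gbx1, Nkx2-1 and Slc17a6. Without Saline-Saline replicate 1, or without Saline-Saline replicate 2, 2 were called.

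LPS-Saline against Saline-Saline also gave 1 call, Trh, beside 1.15% of 15119 genes called lower. Trh fell by 0.51 ± 0.18 on the log2 scale (SE, limma p = 0.02, adjusted p = 0.717, exact permutation p = 0.0571), from 8.63 ± 2.03 to 5.98 ± 0.923 FPKM, with 3 of the 4 LPS-Saline libraries below every Saline-Saline library. This call ended without Saline-Saline replicate 1 and without LPS-Saline replicate 4, and leaving out 1 library at a time gave -0.62 to -0.37. Gbx1 and Zic4 had the widest differences, -1.24 ± 0.63 and -1.16 ± 0.59, and did not pass, nor did Zic1 at -1.06 ± 0.60. Leaving out Saline-Saline replicate 2, the lowest Zic1 value of that group, gave 4 calls, leaving out LPS-Saline replicate 3 gave 3, and leaving out Saline-Saline replicate 3 gave 2.

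Heroin after LPS was compared with LPS alone, and with heroin alone. In LPS-Heroin against LPS-Saline none of the 9 genes was called by limma, none had an unadjusted p below 0.05, and limma-voom on the recovered reads gave 0 calls too, beside 2.29% of 15069 genes. Gbx1 and Lhx8 had values of -1.12 ± 0.88 and -1.03 ± 0.64. Without LPS-Saline replicate 1, the lowest library of that group in Lhx8, Gbx1 and Nkx2-1, 2 members were called, and without LPS-Heroin replicate 4, 1. In LPS-Heroin against Saline-Heroin, Trh was called lower, by 0.48 ± 0.21 (limma p = 0.0465, adjusted p = 1.00, exact permutation p = 0.114), beside 0.999% of 15121 genes called lower. This call ended when any 1 of Saline-Heroin replicates 2 and 3 or LPS-Heroin replicates 1, 2 and 3 was left out, and leaving out 1 library at a time gave -0.62 to -0.295. By count, 2 members were called without Saline-Heroin replicate 4 or without LPS-Heroin replicate 4. The LPS by heroin interaction, which asks whether the effect of both differs from the sum of each, called none of the 9 by limma or limma-voom, with no unadjusted p below 0.05, beside 2.31% of 15113 genes.

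Heroin-SA against Saline-SA gave 2 calls, both lower, beside 2.41% of 15024 genes called lower. Trh fell by 0.90 ± 0.31 on the log2 scale (SE, limma p = 0.0183, adjusted p = 0.363, exact permutation p = 0.0286), from 12.2 ± 7.27 to 5.88 ± 0.660 FPKM, and its groups did not overlap, as 3.24% of genes lay lower in this way. The fall of Trh was called whichever single library was left out, and was -0.54 without Saline-SA replicate 4. Lhx8 fell by 0.71 ± 0.31 (limma p = 0.0466, adjusted p = 0.424, exact permutation p = 0.114), from 11.2 ± 4.28 to 6.57 ± 1.85 FPKM. The call of Lhx8 ended when any 1 of Saline-SA replicates 2, 3 and 4 or Heroin-SA replicates 1, 2 and 3 was left out, and leaving out 1 library at a time gave -0.99 to -0.50. Gbx1, Zic4, Slc17a6 and Nkx2-1 had values of -1.04 ± 0.53, -0.82 ± 0.38, -0.54 ± 0.24 and -0.54 ± 0.26 and did not pass, and the Zic2 means were 2.82 ± 1.32 and 2.75 ± 0.543 FPKM. Calls numbered 6 without Saline-SA replicate 1, 4 without Heroin-SA replicate 4, and 1 without Saline-SA replicate 2, Saline-SA replicate 4 or Heroin-SA replicate 3. Among tissue markers, Calb2 and Calcr were also called lower in Heroin-SA, by 1.02 and 0.80 (limma adjusted p = 0.402 and 0.409). Thalamic genes without the members summed to 27.0 to 31.0 FPKM in Heroin-SA and 29.2 to 100 FPKM in Saline-SA, highest in replicate 4, the library high in Trh, and preoptic and hypothalamic genes to 7.08 to 12.4 and 11.6 to 36.5 FPKM. Mitochondrial reads were highest in Saline-SA replicates 3 and 4, at 15.9% and 14.1%, and the part of these in the members' values was not tested.

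Over all 6 groups, limma's F test called 2 members at an adjusted p below 0.05, Trh (adjusted p = 0.0193) and Slc17a6 (adjusted p = 0.0206), where 35.7% of genes were called. The test includes the difference between the experiments, so a share of this size says little about the members.

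**Figure D5:**
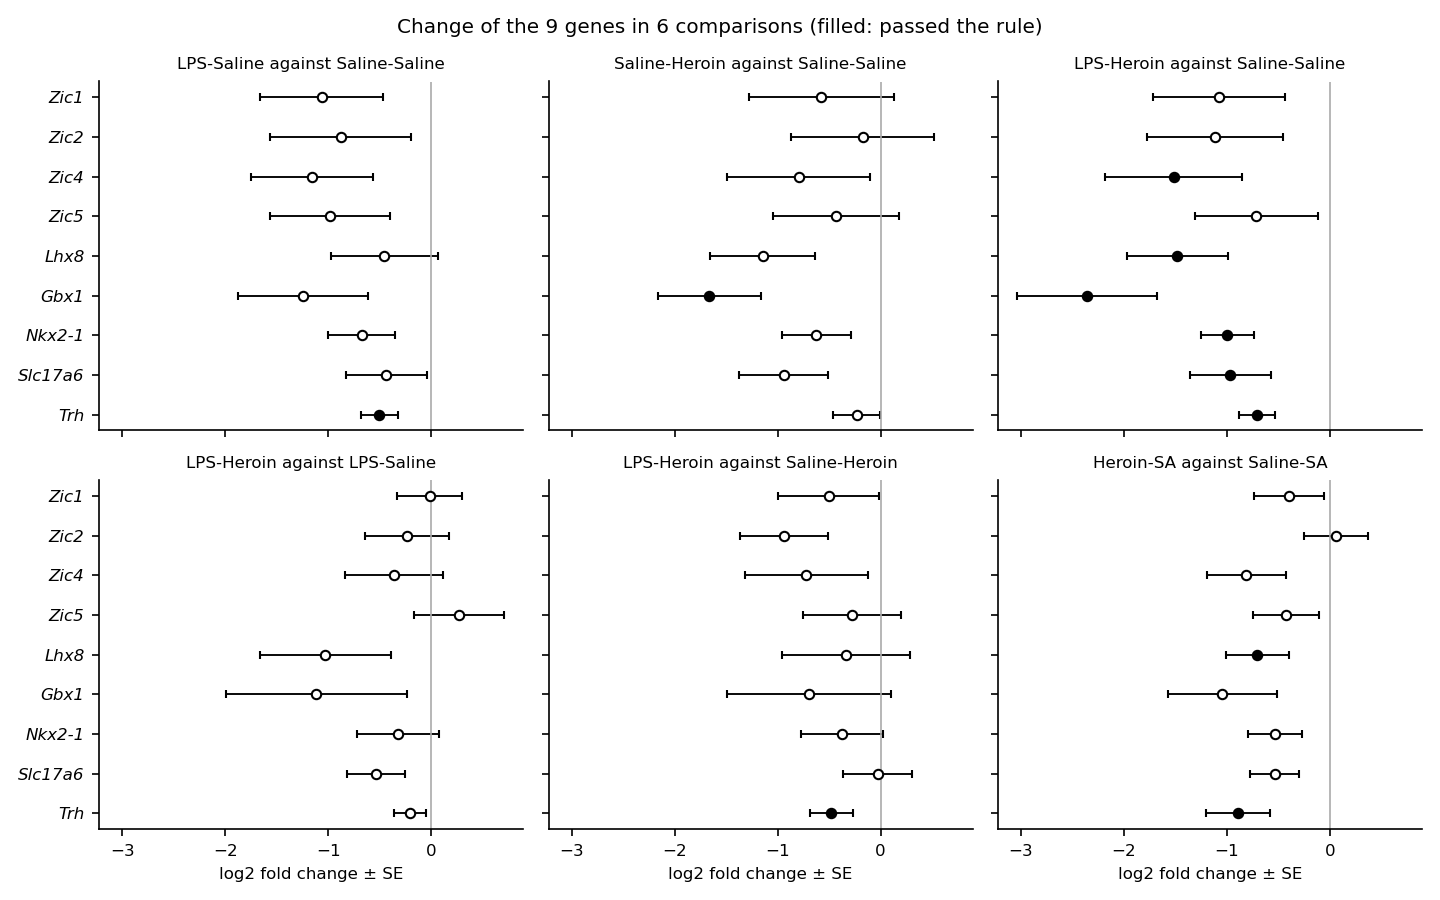
log2 fold change with its standard error for the 9 genes in 6 comparisons, 4 libraries against 4, by limma on log2(FPKM + 0.1), with filled points for genes that passed the rule of p at most 0.05 and 1.3-fold. LPS-Heroin against Saline-Saline has 6 filled points, from -2.36 for Gbx1 to -0.71 for Trh.

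Genes of the same pathways and regions were counted from lists, and the shares of all genes called lower to read these counts against are 2.44% for LPS-Heroin against Saline-Saline, 1.67% for Saline-Heroin against Saline-Saline and 2.41% for Heroin-SA against Saline-SA. Counts that include members of the set are not independent of the calls above. Among 19 transcription factors of the basal forebrain and medial ganglionic eminence tested in LPS-Heroin against Saline-Saline, 7 fell, 3 of them members of the set, and 0 rose by the rule, with a median log2 fold change of -0.16. Besides the members these were Lhx6 at -0.92 (limma adjusted p = 0.1865), Six3 at -0.56 (limma adjusted p = 0.282), Gbx2 at -1.45 (limma adjusted p = 0.316) and Isl1 at -0.71 (limma adjusted p = 0.396). In Saline-Heroin against Saline-Saline Lhx6 also fell, by 0.68 (limma adjusted p = 0.750). Of 8 cholinergic genes tested, 3 fell in LPS-Heroin against Saline-Saline and 4 in Heroin-SA against Saline-SA, Lhx8 among them in both. Ache, which breaks down acetylcholine, fell by 0.70 (limma adjusted p = 0.1545) and by 0.48 (limma adjusted p = 0.378), and Ngfr, the p75 neurotrophin receptor gene, fell by 2.01 (limma adjusted p = 0.366) and Chat by 0.59 (limma adjusted p = 0.398) in Heroin-SA.

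Of the lateral septum list, 10 genes were tested and 2 fell in LPS-Heroin against Saline-Saline, Zic4 and the neurotensin gene Nts, at -0.86 (limma adjusted p = 0.1545). Its summed level without the members was 42.3 to 60.3 FPKM in Saline-Saline and 30.6 to 40.9 FPKM in LPS-Heroin. In Heroin-SA against Saline-SA none of its genes was called by limma, and none had an unadjusted p below 0.05. Of 8 genes of the preoptic area and hypothalamus tested, 6 fell in LPS-Heroin against Saline-Saline, the 3 members among them together with Avp at -1.99 (limma adjusted p = 0.267), Oxt and Calcr, the calcitonin receptor gene, at -1.42 (limma adjusted p = 0.383). Oxt passed the filter only through Saline-Saline, with 21.3, 3.59, 31.3 and 0 FPKM there against 0.251, 0, 0 and 0 FPKM in LPS-Heroin. A gene kept in this way could only fall, so its call is no support. The list has 16 genes, and those not tested were below the filter, so the count describes only the genes that passed.

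TRH is cut from its precursor, modified, sensed by receptors and broken down by the products of other genes. Of 10 genes for the production, receptors and breakdown of TRH tested in LPS-Heroin against Saline-Saline, Trh and Qpct, which closes the peptide's N-terminal ring, fell, the latter by 0.53 (limma adjusted p = 0.341), and the median log2 fold change was 0.15. In LPS-Saline against Saline-Saline, Pcsk1, a prohormone convertase gene, rose by 0.68 (limma adjusted p = 0.736), where 1.21% of genes were called higher, at levels of 0.0263 to 1.23 FPKM over the 24 libraries. In Heroin-SA against Saline-SA, Trhr, the TRH receptor gene, fell with Trh, by 0.64 (limma adjusted p = 0.348), among 8 genes tested. Among the vesicular transporters, Slc17a6 and Slc32a1, the GABA transporter, fell in LPS-Heroin against Saline-Saline, the latter by 0.54 (limma adjusted p = 0.198), while the cortical transporter Slc17a7 rose by 1.23 (limma adjusted p = 0.231).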

How the data were processed

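NAc tissue, core and shell together, was sequenced as directional poly(A) libraries. Reads were trimmed with fastp, aligned to rn6 with HISAT2 and counted per gene with featureCounts, versions and strand setting not given in the sources used here. The authors deposited FPKM per gene and library, the only values used. FPKM times gene length gave whole reads for 100% of values (tolerance 0.01), and depth is the sum of these reads.

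Values were tested as log2(FPKM + 0.1) with limma 3.58.1 (limma-trend) in R 4.3.3, 4 libraries against 4, on genes with a mean of at least 0.5 FPKM in the libraries compared, and p-values were adjusted over all genes tested (Benjamini-Hochberg). A fold change on this scale understates that of low genes. Correlations, exact permutation tests and figures used Python 3.11.15, SciPy 1.17.1 and Matplotlib 3.10.9. The fits and correlations were tested on simulated data.

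Groups came from the treatment labels. The members and lists were chosen with earlier results of these data known. Genes named besides the members were the list genes that were called and the 3 genes most alike to each member, unless stated. Some results are not reported here. The study's methods give more rats per group than the 4 libraries analysed here. Alternatives were other pseudocounts and filters, quantile and median scaling, 1 fit of all groups, a replicate block, limma-voom on the recovered reads, and leaving out each library.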

Additional observations from a re-analysis of the deposited data

Results flagged for a closer look

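In 3 of the 54 sets of 4 libraries (9 genes in 6 groups), 1 library stood so far from the other 3 that its gap exceeded Dixon's 95% critical value for this ratio to the group's range. Chance alone flags about 1 in 20 sets. Gbx1 was at 4.39 FPKM in Saline-Saline replicate 4 (gap 0.873 of the range), the library that also had the highest Chat and Ngfr. Slc17a6 was at 16.5 FPKM in Saline-Saline replicate 1 (0.922), the library with Ttr at 318 FPKM. Trh was at 23.0 FPKM in Saline-SA replicate 4 (0.841), a library with Calb2 at 79.9 FPKM and Crhr2 at 3.38 FPKM, each the next highest after Saline-Saline replicate 1. Any relation of these markers to the high values was not tested.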

How the results depend on the processing

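The 46 member log2 fold changes that were at least 1.3-fold in the main fit were followed under other settings. Of their 820 values, 742 kept direction and call, 32 lost the call, 41 gained it and 5 reversed. Reversals came without Saline-Saline replicate 1 for Zic5 in Saline-Heroin against Saline-Saline (leave-one-out range -0.79 to 0.064) and, in the interaction, for Zic4 (-0.028 to 0.88) and Slc17a6 (-0.0013 to 0.71), and without LPS-Saline replicate 1 or LPS-Heroin replicate 3 for Gbx1 in the interaction (-0.043 to 1.10). Smaller changes were not followed in this way, and some of them reversed too. Members with a negative value went from 9 to 7 in Saline-Heroin against Saline-Saline without Saline-Saline replicate 1. They went from 8 to 6 in LPS-Heroin against LPS-Saline without LPS-Saline replicate 4. The causes of changed counts were not tested.

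Members called numbered 1 in LPS-Saline against Saline-Saline, but 0 with all 6 groups in 1 fit, 2 with the replicate block, 3 by limma-voom and 0 to 4 leaving out 1 library. In Saline-Heroin against Saline-Saline, 1 became 2 with all groups, with the replicate block and by limma-voom, and 1 to 4 leaving out 1 library. In LPS-Heroin against Saline-Saline, 6 became 4 to 8. Against LPS-Saline, 0 became 1 with the replicate block and 0 to 2 leaving out 1 library. Against Saline-Heroin, 1 became 0 without a filter, with all groups or with the replicate block, 2 by limma-voom, and 0 to 2. In Heroin-SA against Saline-SA, 2 became 1 without a filter or with all groups, 4 by limma-voom, and 1 to 6. The F test called 2 members, 0 without a filter and 2 to 3 leaving out 1 library. The interaction called 0 throughout.

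Replicate numbers are only numbers: of 28 same-numbered pairs of libraries, 2 had r above 0.1. Of the 12 member pairs past the threshold, 7 passed without the 2 farthest libraries, 10 without Saline-Saline replicate 1 (chosen after seeing the data; all of these among the 12), and 0 in the 8 self-administration libraries alone. Depth limits Gbx1 and Zic5 most, at 3 and 9 reads in their lowest libraries.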
